A study of Mus musculus with 6 samples.

Results

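The genes described here encode core proteins of the spliceosome and SR proteins. They were chosen by name: protein-coding genes of the mouse build GRCm38 whose symbols begin with Snrp, Srsf and a digit, Sf3a, Sf3b, Prpf and a digit, or U2af. The rule gave 48 of 21883 protein-coding genes outside the mitochondrial genome. By role, 8 encode Sm proteins, 7 encode proteins of the U1 and U2 particles, 12 encode SF3 and U2AF subunits, 10 encode other Prp proteins and 11 encode SR proteins. Peaks were assigned to a gene when they overlapped its record widened by 2.5 kb on both sides.

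P19 is an embryonal carcinoma line of the mouse, and its cells were grown undifferentiated in a proliferation medium with serum before their histone marks were mapped. The tested libraries carried crotonylated lysine 9 of histone H3 (H3K9cr, 2 biological replicates) and were set against libraries of the acetylated form of the same residue (H3K9ac, 2 biological replicates). Both came from native chromatin immunoprecipitation, in which chromatin is cut and precipitated without crosslinking, with 1 antibody for each mark from the same vendor, so an effect of the antibody used cannot be told apart from one of the mark. All groups share 1 cell line and 1 growth condition, no treatment or genotype was compared, and the 2 input libraries were not analysed here.

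The spliceosome removes introns from messenger RNA precursors. Most of its small nuclear particles hold a ring of Sm proteins around a small nuclear RNA. U1 recognises the 5' splice site, U2AF reads the 3' splice site, and the SF3 subunits of U2 hold the branch point. Prp proteins, named after yeast precursor RNA processing mutants, build and run the catalytic complex, and SR proteins, rich in arginine and serine, bind exons and recruit the splicing machinery. Both histone marks are known from active promoters, where acyl groups on lysine 9 neutralise its charge and are read by bromodomain or YEATS domain proteins. Splicing factor genes are mostly expressed in every growing cell.

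Each library had 1 list of peaks, which are stretches where sequenced fragments pile up above the local background. There were 28360 and 28345 peaks in the lists of H3K9cr, against 26096 and 27474 in those of H3K9ac. The number of reads is unknown, so values carry no interval for counting error, and weak sites under the authors' threshold are missing from a list. A list describes the whole culture and cannot separate a mark on more cells from a higher level per cell. Of 8 genes known from embryonal carcinoma and stem cells, all had a peak of both marks in their window in every library. In every library 5 of them had a summit within 1 kb of a listed start, or of either gene end where no start was listed. Sox2 had none at that distance in any library, and Nanog and Tdgf1 had one in 3 libraries. Of 14 markers of other cell types, 6 had such a summit in every library and 8 in none, and Alb, Ttr, Hbb-bt, Ptprc and Col3a1 had no peak at all.

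The sequences around the start sites that carry the results are shown next, from the RefSeq promoter table of GRCm38.p6, which covers 250 bases before to 50 bases after a listed start. Entries were found for 41 of the 48 genes, and those without one include Snrpb, Snrpd1, U2af2, Sf3b4, Sf3b5 and Prpf18. Srsf4, Srsf2, Sf3b3 and Srsf5 are shown because they stood among the 5 genes with the highest mean peak rank, Prpf8 because its rank changed between replicate numbers, Snrpe for a doubled motif, and Srsf12 because it had the weakest peak. Capitals mark matches on either strand to 8 motifs, each named after the factors that are known to bind it. The ETS motif was searched as CCGGAAG, and the core of the NRF1 motif was searched as CGCNTGCG. The YY1 motif was searched as AAGATGGC, and the motif of Sp1 and its relatives was searched as GGGCGG. The NF-Y motif was searched as CCAAT, and the TATA box was searched as TATAAA. The CRE, a cyclic AMP response element, was searched as TGACGTCA, and the E box was searched as CACGTG. Matches that touch or overlap appear as 1 run of capitals.
Srsf4, chr4:131873387-131873686, plus strand: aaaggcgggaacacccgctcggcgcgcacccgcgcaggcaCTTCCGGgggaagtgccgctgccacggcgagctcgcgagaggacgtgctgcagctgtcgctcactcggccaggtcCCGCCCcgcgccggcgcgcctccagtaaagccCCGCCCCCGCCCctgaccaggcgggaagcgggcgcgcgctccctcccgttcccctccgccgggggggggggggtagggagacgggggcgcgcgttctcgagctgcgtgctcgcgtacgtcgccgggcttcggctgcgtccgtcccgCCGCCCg
Srsf2, chr11:116853045-116853344, minus strand: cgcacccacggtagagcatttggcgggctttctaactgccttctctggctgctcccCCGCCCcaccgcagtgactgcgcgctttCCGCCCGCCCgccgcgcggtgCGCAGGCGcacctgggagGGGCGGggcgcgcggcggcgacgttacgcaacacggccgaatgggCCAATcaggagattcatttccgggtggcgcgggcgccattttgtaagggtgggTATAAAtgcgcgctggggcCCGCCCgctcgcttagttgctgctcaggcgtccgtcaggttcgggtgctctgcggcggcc
Sf3b3, chr8:110846754-110847053, minus strand: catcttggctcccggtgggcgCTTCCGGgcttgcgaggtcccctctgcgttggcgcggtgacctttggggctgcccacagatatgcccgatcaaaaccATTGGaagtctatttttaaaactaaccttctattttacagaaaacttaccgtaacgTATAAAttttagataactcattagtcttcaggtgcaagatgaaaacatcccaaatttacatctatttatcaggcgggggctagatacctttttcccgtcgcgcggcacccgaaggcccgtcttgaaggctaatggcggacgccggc
Srsf5, chr12:80945249-80945548, plus strand: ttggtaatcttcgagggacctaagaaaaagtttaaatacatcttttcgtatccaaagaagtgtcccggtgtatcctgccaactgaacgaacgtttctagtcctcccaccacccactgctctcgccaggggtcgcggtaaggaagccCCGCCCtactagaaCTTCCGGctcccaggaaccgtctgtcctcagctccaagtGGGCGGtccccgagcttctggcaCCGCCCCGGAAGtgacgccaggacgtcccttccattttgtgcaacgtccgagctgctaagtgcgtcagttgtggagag
Prpf8, chr11:75486527-75486826, plus strand: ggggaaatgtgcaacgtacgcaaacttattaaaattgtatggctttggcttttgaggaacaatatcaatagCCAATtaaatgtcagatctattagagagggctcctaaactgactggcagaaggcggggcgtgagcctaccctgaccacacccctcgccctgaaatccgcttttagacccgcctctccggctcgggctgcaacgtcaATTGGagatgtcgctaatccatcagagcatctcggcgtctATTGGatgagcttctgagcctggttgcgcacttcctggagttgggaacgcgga
Snrpe, chr1:133610231-133610530, minus strand: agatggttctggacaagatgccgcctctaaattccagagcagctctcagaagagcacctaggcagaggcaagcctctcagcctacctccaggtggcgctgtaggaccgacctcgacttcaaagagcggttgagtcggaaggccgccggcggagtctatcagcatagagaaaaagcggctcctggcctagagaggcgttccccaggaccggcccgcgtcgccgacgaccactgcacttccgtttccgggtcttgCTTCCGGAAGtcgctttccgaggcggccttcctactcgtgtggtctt
Srsf12, chr4:33209022-33209321, plus strand: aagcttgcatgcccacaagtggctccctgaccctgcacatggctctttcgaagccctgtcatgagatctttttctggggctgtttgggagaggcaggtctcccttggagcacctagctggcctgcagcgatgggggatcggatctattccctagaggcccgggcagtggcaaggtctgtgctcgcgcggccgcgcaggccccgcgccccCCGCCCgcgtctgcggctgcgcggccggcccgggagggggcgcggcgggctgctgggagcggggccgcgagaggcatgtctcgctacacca

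Srsf4 encodes an SR protein that regulates splice site choice, and its window held 49 CpG dinucleotides and a GC content of 77.7%, the most CpG among the 41 genes. Srsf2 held 39 CpG, with 5 matches to the Sp1 motif, 1 to NRF1, 1 to NF-Y and 1 to the TATA box. Sf3b3 held 20 CpG and Prpf8 held 16. Srsf12, with the weakest peak of the 48 genes, held 26 CpG at a GC content of 69%, more than Sf3b3, Srsf5 or Prpf8.

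Over the 41 windows the median number of CpG was 24, against 13 over 17491 protein-coding genes of the table and 20 over the 11819 of those with a peak in every library. The median GC content was 59%, against 56.3% and 61%. The ETS motif was the one whose share stood furthest from that of all promoters in percentage points. It was present in 17 of 41 windows (41.5%), against 11.9% of all promoters in the table and 16.2% of those of marked genes. Snrpe, Snrpb2, Sf3b6 and Srsf5 held 2 matches each, and in Snrpe they overlap in the run CTTCCGGAAG. The NRF1 core was in 12 windows (29.3%), against 11.4% and 16.3%, among them Srsf2, Srsf7, Snrpb2, Snrpd2, Sf3a2, U2af1, Prpf3 and Prpf6.

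The other motifs lay closer to their share among marked genes. Sp1 matches were in 26 windows (63.4%), against 46.3% of all promoters and 63.9% of those of marked genes. NF-Y matches were in 17 (41.5%, against 39.2% and 38.5%), and TATA boxes in 4 (9.76%, against 13.3% and 7.17%). E boxes were in 4 windows (9.76%, against 7.91% and 9.95%), CRE in 2 (4.88%, against 2.33% and 3.18%) and YY1 in 2 (4.88%, against 3.21% and 4.19%). A match is a description of the letters, and binding of a factor was not measured.

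Both marks were present at every gene of the set. All 48 genes had a peak in each of the 4 libraries, where the share over all protein-coding genes was 67.9%. All 48 also had a summit within 1 kb of a listed start, or of either gene end where no start was listed, in every library, against 58.1% of all protein-coding genes. Within 0.5 kb the count was 35, and the share over all genes at that distance is not given here. Presence alone therefore did not separate the members from one another, and the strength, width and position of the peaks did.

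Strength was read from the authors' deposited fold enrichment, the ratio of fragment pileup to local background at a peak. Because fold enrichment cannot be compared between lists, the strongest peak of each gene was given its percentile within its own list, where 100 is the strongest peak. The median percentile of the 48 genes was 94.92 and 95.08 in the H3K9cr libraries and 94.98 and 95.07 in the H3K9ac libraries. Over all 14862 genes with a peak in every library it was 77.26 and 77.27 for H3K9cr and 75.17 and 76.71 for H3K9ac. Of the 48 genes, 28 (58.3%) were above percentile 90 in all 4 lists, against 15.2% of the 14862 genes. The share was 16.3% among the 12710 genes that also had a summit near the start in every library.

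A list of 82 further splicing genes outside the name rule, such as Snrnp70 of U1 and Snrnp200 of U5, had peaks of both marks in every library at all 82. A summit lay near the start in every library at 77 of them, and the exceptions were Sart3, Luc7l2, Hnrnpa2b1, Rbfox2 and Esrp1. Their median percentile was 93.58 and 94.44 for H3K9cr and 93.88 and 94.55 for H3K9ac, and 41 of 82 were above percentile 90 in all 4 lists.

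**Figure D1:**
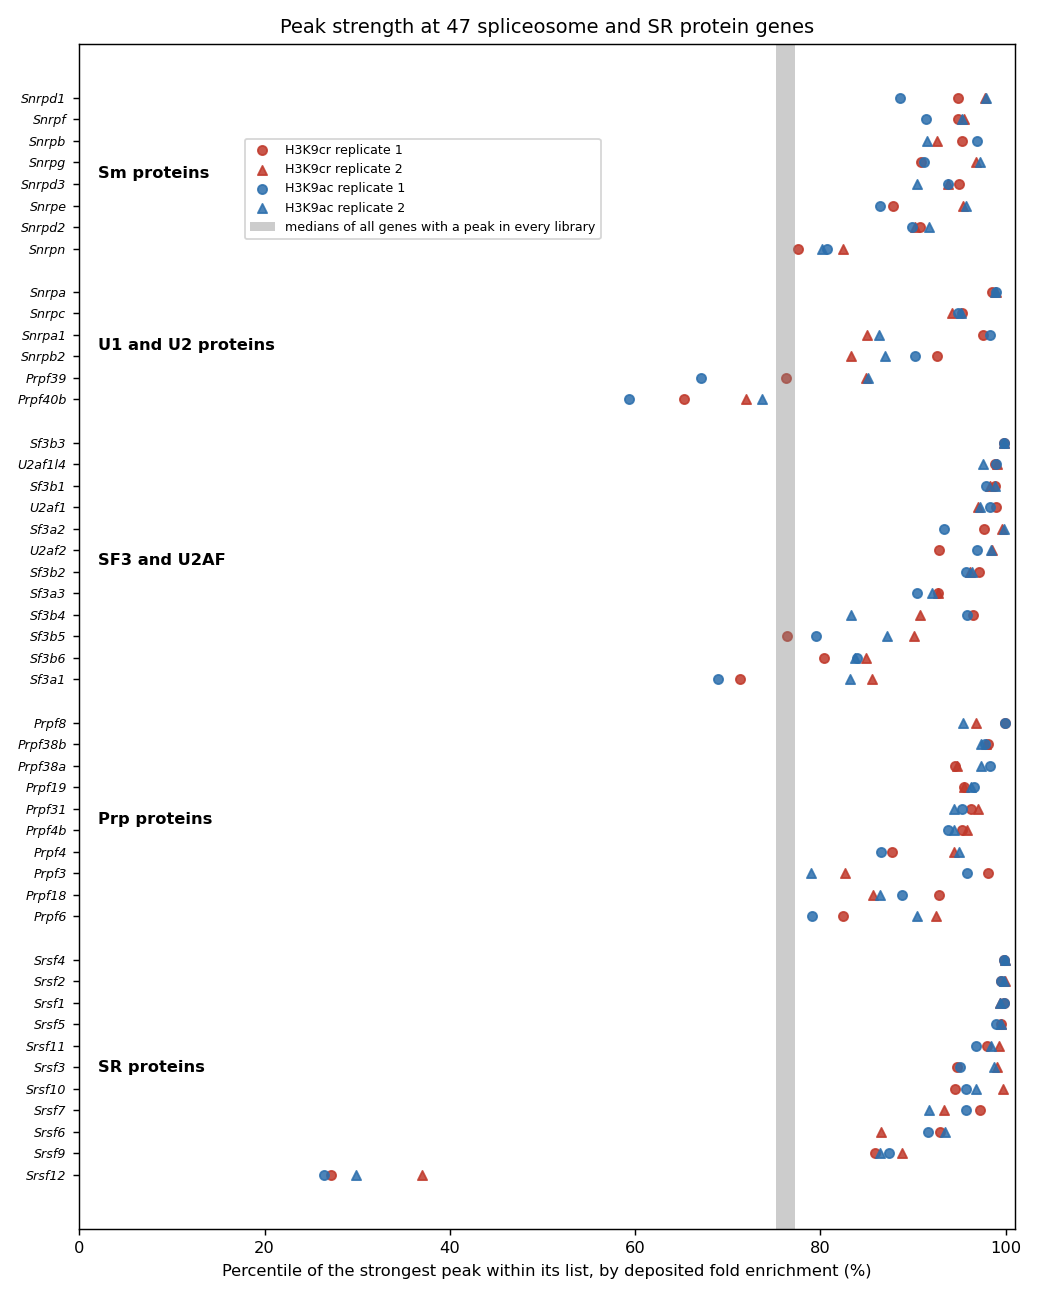
Percentile (horizontal axis, %) of the strongest peak of 47 of the 48 genes within its list, by deposited fold enrichment. Genes are grouped by role, red points are H3K9cr and blue points H3K9ac, circles are replicate 1 and triangles replicate 2, and the grey band spans the medians of all 14862 genes with a peak in every library (75.17 to 77.27). Most genes lie right of the band, and Srsf12 lies far left of it, between 26.4 and 36.96.

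The Sm protein genes code for the ring around most small nuclear RNAs of the spliceosome. Their median percentile was 92.82 and 94.57 for H3K9cr and 90.53 and 93.49 for H3K9ac, and 4 of 8 were above percentile 90 in all 4 lists. Snrpb, the gene of SmB on chromosome 2 (130171636 to 130179382), reached 95.29 and 92.64 with H3K9cr and 96.89 and 91.57 with H3K9ac. Snrpd1 on chromosome 18 reached 94.83 and 97.83 with H3K9cr and 88.65 and 97.87 with H3K9ac. The marks overlapped at both genes, and at Snrpd1 replicate 1 was lower than replicate 2 in both marks. The ring partners Snrpd2, Snrpd3, Snrpe, Snrpf and Snrpg lay between 86.48 and 97.27 over the 4 libraries.

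Snrpn was the exception among the Sm genes. It codes for SmN, a relative of SmB known mainly from brain, and belongs to an imprinted domain on chromosome 7 in which the paternal allele is transcribed. Its strongest peak reached 77.6 and 82.44 with H3K9cr and 80.76 and 80.15 with H3K9ac, near the median of all marked genes, and the marks overlapped. Its record is the longest of the set, 467683 bp from 59982495 to 60450177 on the minus strand, and the RefSeq table lists 4 starts in it. A single one of them, at 60005199, lay under a peak, in all 4 libraries, while the 5'-most start at 60450177 and those at 60140225 and 60047978 lay under none in any library.

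The windows of the unmarked 5'-most start and of the marked start of Snrpn are printed for comparison, with the same motifs searched.
Snrpn, 5'-most start, chr7:60450128-60450427, minus strand: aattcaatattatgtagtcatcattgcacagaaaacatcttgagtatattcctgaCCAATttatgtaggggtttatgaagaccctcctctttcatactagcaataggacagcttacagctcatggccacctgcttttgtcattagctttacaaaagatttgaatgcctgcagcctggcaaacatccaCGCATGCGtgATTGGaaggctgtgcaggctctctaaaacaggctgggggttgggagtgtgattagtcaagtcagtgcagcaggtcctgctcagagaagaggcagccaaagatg
Snrpn, marked start, chr7:60005150-60005449, minus strand: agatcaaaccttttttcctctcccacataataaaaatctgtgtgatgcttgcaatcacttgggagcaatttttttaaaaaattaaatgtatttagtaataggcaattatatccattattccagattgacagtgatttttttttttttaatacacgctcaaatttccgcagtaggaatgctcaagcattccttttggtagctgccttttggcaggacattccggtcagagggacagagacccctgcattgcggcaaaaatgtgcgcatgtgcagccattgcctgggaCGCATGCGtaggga

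Neither window was rich in CpG. The marked one held 7 CpG at a GC content of 40.3%, and the 5'-most held 2 CpG at 45%. The windows of all 4 listed starts held the NRF1 core, and the 5'-most also held 2 NF-Y matches. The region over the marked start ran from 59999835 to 60006310, 6476 bp over the libraries together, and also covers the start of Snurf, which is made from the same transcript. Its peaks were 6370 and 6324 bp long in the H3K9cr libraries and 5917 and 6343 bp long in the H3K9ac libraries.

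Another strong region lay inside the Snrpn record, far from any listed start of the gene. It ran from 60243045 to 60245229 on chromosome 7, 102820 bp from the nearest listed start, and the gene table places only the long noncoding RNA Snhg14 over it. Its peak reached percentile 74.49 and 81.33 in the H3K9cr libraries and 73.18 and 73.11 in the H3K9ac libraries, nearly as high as the peak at the start. A weaker region of 1129 bp next to the marked start was also found in all 4 libraries, at 31.01 and 32.12 for H3K9cr and 11.21 and 23.95 for H3K9ac.

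Genes of U1 and U2 proteins held the weakest peaks as a group. Their median percentile was 92.58 and 84.93 for H3K9cr and 90.26 and 87 for H3K9ac, and 2 of 7 were above percentile 90 in all 4 lists. Snrpa, whose product binds a stem loop of U1 RNA, stood at the top with 98.53 and 99 for H3K9cr and 98.97 and 98.84 for H3K9ac, with the marks overlapping. Its 5' region shares the peak with BC024978, whose listed end lies 21 bp away.

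Prpf40b and Prpf39 of this role are mammalian relatives of yeast U1 proteins. Prpf40b stood at 65.33 and 71.93 with H3K9cr and 59.33 and 73.66 with H3K9ac, Prpf39 at 76.26 and 84.93 with H3K9cr and 67.15 and 85.2 with H3K9ac. The marks overlapped at both genes. Prpf40b has a further listed start 8043 bp downstream of the first, and no peak lay over it in any library. Snrpc, which helps U1 hold the 5' splice site, lay between 94.22 and 95.32, and the U2 proteins Snrpa1 and Snrpb2 lay between 83.31 and 98.27.

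Among SF3 and U2AF genes, whose products define the 3' splice site and the branch point, 8 of 12 were above percentile 90 in all 4 lists. The median percentile was 96.81 and 96.57 for H3K9cr and 95.76 and 96.8 for H3K9ac. Sf3b3, which codes for a scaffold subunit of SF3b on chromosome 8 (110810491 to 110846806), held rank 55 and 44 in the H3K9cr lists and rank 55 and 37 in the H3K9ac lists. Its fold enrichment was 203 and 215 with H3K9cr and 174 and 249 with H3K9ac. The Sf3b3 start lies head to head with Cog4, a Golgi gene, whose start is under the same peak, so the peak cannot be assigned to either gene alone.

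Sf3b1, the subunit that clasps the branch point and a frequent target of mutations in human blood cancers, stood at 98.88 and 98.33 with H3K9cr and 97.88 and 98.9 with H3K9ac. U2af1, which reads the AG at the 3' splice site, stood at 98.96 and 96.99 with H3K9cr and 98.3 and 97.23 with H3K9ac. Its partner U2af2, which binds the polypyrimidine tract, stood at 92.83 and 98.58 with H3K9cr and 96.95 and 98.4 with H3K9ac. In H3K9cr replicate 1 the value 92.83 came from a region that also covers an end of Epn1. The region at the other end of the U2af2 record reached 83.11 there. U2af2 thus counts as above percentile 90 in every list through the region at Epn1. In these 3 genes the marks overlapped.

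At the other end, Sf3a1, a subunit of the SF3a complex of U2, stood at 71.28 and 85.56 with H3K9cr and 68.96 and 83.18 with H3K9ac. Its summit pileup was not low: 416 and 457 with H3K9cr and 294 and 483 with H3K9ac, higher than that of Sf3b5 or Sf3b6 in the same libraries. The local background implied by its fold enrichment was 8 and 5 for H3K9cr and 6.91 and 5 for H3K9ac, the highest of the 48 genes in each replicate 1 library. Sf3b5 and Sf3b6, small subunits of SF3b, lay between 76.43 and 90.12, Sf3a3 and Sf3b4 between 83.3 and 96.52, and Sf3a2 and U2af1l4 between 93.32 and 99.81.

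Genes of the Prp proteins had a median percentile of 95.43 and 95.13 for H3K9cr and 95.62 and 94.72 for H3K9ac, and 6 of 10 were above percentile 90 in all 4 lists. Prpf8, the large protein at the heart of the catalytic spliceosome, stood at 99.95 and 96.83 with H3K9cr and 99.92 and 95.37 with H3K9ac. Prpf19, a ubiquitin ligase that joins the spliceosome on activation, stood at 95.53 and 95.47 with H3K9cr and 96.61 and 96.28 with H3K9ac. Prpf31, a U4/U6 protein known from inherited retinal degeneration in humans, stood at 96.27 and 97 with H3K9cr and 95.35 and 94.4 with H3K9ac. Prpf6, which bridges U5 to U4/U6, had the lowest mean percentile of the role, with 82.42 and 92.53 for H3K9cr and 79.06 and 90.42 for H3K9ac. The marks overlapped at Prpf8 and Prpf6. They did not at Prpf19, where H3K9cr was lower, or at Prpf31, where it was higher. These differences in percentile were not tested, and the share of such genes over all genes is not given here. By percentile of the highest summit pileup in the window, H3K9cr was again lower at Prpf19. At Prpf31 the marks overlapped by that measure, with 94.24 and 95.67 for H3K9cr and 93.16 and 96.49 for H3K9ac. The kinase gene Prpf4b and the genes Prpf38a and Prpf38b lay between 93.82 and 98.32, and Prpf3, Prpf4 and Prpf18 spread from 79.01 to 98.11.

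The SR protein genes had the highest median percentile of the 5 roles in every library but H3K9ac replicate 1, and they also contained the weakest gene. Their median percentile was 97.21 and 99.25 for H3K9cr and 95.74 and 98.39 for H3K9ac, and 8 of 11 were above percentile 90 in all 4 lists. Srsf4 on chromosome 4 (131873530 to 131901725) had the highest mean percentile of the 48 genes, 99.87. It held rank 63 and 9 in the H3K9cr lists and rank 59 and 14 in the H3K9ac lists, with a fold enrichment of 201 and 256 for H3K9cr and 172 and 270 for H3K9ac.

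Srsf2, also called SC35 and known from stains of nuclear speckles, held rank 132 and 22 in the H3K9cr lists and rank 139 and 34 in the H3K9ac lists. Its peak also covers a listed start of Mfsd11, which has an end 883 bp from the Srsf2 start. The records of these neighbours overlap, so the peak cannot be assigned to either gene alone. Srsf1, the founding SR protein, stood at 99.81 and 99.4 with H3K9cr and 99.84 and 99.4 with H3K9ac, and Srsf5 at 99.53 and 99.48 with H3K9cr and 98.93 and 99.56 with H3K9ac. For these 4 genes the marks overlapped, and replicate number separated the libraries at Srsf4, Srsf2 and Srsf1. Srsf3 and Srsf7, small SR proteins that also act in RNA export, followed with 94.75 and 99.05 and with 97.21 and 93.34 for H3K9cr, and with 95.05 and 98.7 and with 95.74 and 91.7 for H3K9ac. Srsf6 and Srsf9 lay between 85.88 and 93.48 over the 4 libraries.

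Srsf12, an SR protein related to Srsf10, was the outlier. It stood at 27.19 and 36.96 with H3K9cr and 26.4 and 29.91 with H3K9ac. Its fold enrichment was 8.23 and 11 for H3K9cr and 7.8 and 9.82 for H3K9ac, and its summit pileup was 31.9 and 32.5 for H3K9cr and 27 and 28.3 for H3K9ac. The peak covered 927 and 1057 bp in the H3K9cr libraries and 1024 and 1068 bp in the H3K9ac libraries, the least of the set in each library. The peak was nonetheless called in every library and lay over the start.

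Peak shape was described around the 5'-most listed start, which lay under a peak in every library at 40 of the 41 genes with a start in the table (97.6%), against 53.6% of 17491 genes. Snrpn was the exception. Over the 40 genes the peak reached a median of 967 and 1014 bp upstream of the start with H3K9cr and 937 and 959 bp with H3K9ac, against 812 and 833 bp with H3K9cr and 742 and 796 bp with H3K9ac over 9381 genes. Downstream it reached 1538 and 1529 bp with H3K9cr and 1426 and 1491 bp with H3K9ac, against 1207 and 1234 bp and 1151 and 1197 bp. By their medians the peaks of the splicing genes extended further on both sides, in both marks.

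Most summits lay just downstream of the listed start used. The median summit was 305 and 313 bp downstream of the start with H3K9cr and 325 and 306 bp with H3K9ac, close to the 281 and 296 bp and the 295 and 292 bp of all genes. It lay downstream of the start at 36 and 35 of 40 genes with H3K9cr and at 36 and 36 with H3K9ac, against 77.7% and 77.1% and 78.2% and 78% of all genes. The exceptions in all 4 libraries were 3 SR protein genes. With positions before the start written as negative, the summit of Srsf2 lay at -398 and -385 bp with H3K9cr and at -385 and -385 bp with H3K9ac. That of Srsf4 lay at -515 and -515 bp with H3K9cr and at -515 and -524 bp with H3K9ac. That of Srsf10 lay at -526 and -520 bp with H3K9cr and at -535 and -525 bp with H3K9ac. The start used for Srsf2, at 116853094, lies inside its record, which runs on upstream to 116853675. The summits of Srsf2 therefore lie before that start but within the record.

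**Figure D2:**
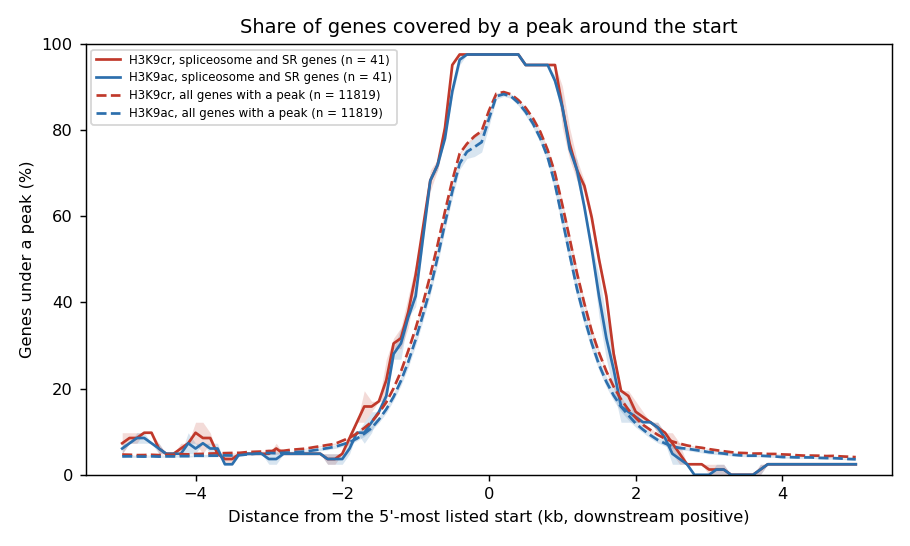
Share of genes (vertical axis, %) with a peak over each position from 5 kb before to 5 kb after the 5'-most listed start (horizontal axis, kb). Solid lines are the 41 splicing genes with a listed start and dashed lines the 11819 genes of the table with a peak in every library, red for H3K9cr and blue for H3K9ac, each the mean of 2 libraries with a band from the lower to the higher. The solid lines reach 97.6% around the start, and the lines of the marks run close together.

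At Prpf40b the 2 marks placed the summit on different sides. It lay at -419 and -436 bp with H3K9cr and at 310 and 312 bp with H3K9ac, while the peak itself reached 1073 and 1098 bp upstream with H3K9cr and 981 and 1079 bp with H3K9ac. At Prpf38a, a protein of the precatalytic complex, the summit lay after the start in H3K9cr replicate 1 (343 bp) and before it in H3K9cr replicate 2 (-450 bp) and in the H3K9ac libraries (-453 and -453 bp). A list gives a single summit per peak, so the height of other maxima under the same peak is not known, and the difference in summit position was not tested.

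Covered length, the number of bases under peaks in the gene window, was larger at the splicing genes than over all marked genes. With H3K9cr its median was 2668 and 2737 bp, and with H3K9ac 2514 and 2679 bp. Over all marked genes it was 2381 and 2429 bp with H3K9cr and 2196 and 2342 bp with H3K9ac. The SR genes were the widest, at 3480 and 3396 bp under H3K9cr and 2953 and 3323 bp under H3K9ac. At Srsf3 the peak over the start reached 2946 and 3258 bp into the gene with H3K9cr and 2735 and 2719 bp with H3K9ac.

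The splicing genes are also short, with a median record length of 13329 bp, against 24111 bp over all marked genes, and the SR genes are shorter still (7290 bp). Peaks covered a median of 12.6% and 13.1% of the gene record with H3K9cr and 11.8% and 12.5% with H3K9ac, against 5.93% and 6.03% with H3K9cr and 5.41% and 5.8% with H3K9ac over all marked genes. Among the SR genes it was 24.9% and 25.1% with H3K9cr and 24.8% and 24.5% with H3K9ac. The record of Srsf2 was covered to 79.6% and 83.7% by H3K9cr and to 78.8% and 76.3% by H3K9ac. That of Sf3b5, a small gene of 734 bp for a subunit of SF3b, lay wholly under a peak in all 4 libraries.

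**Figure D3:**
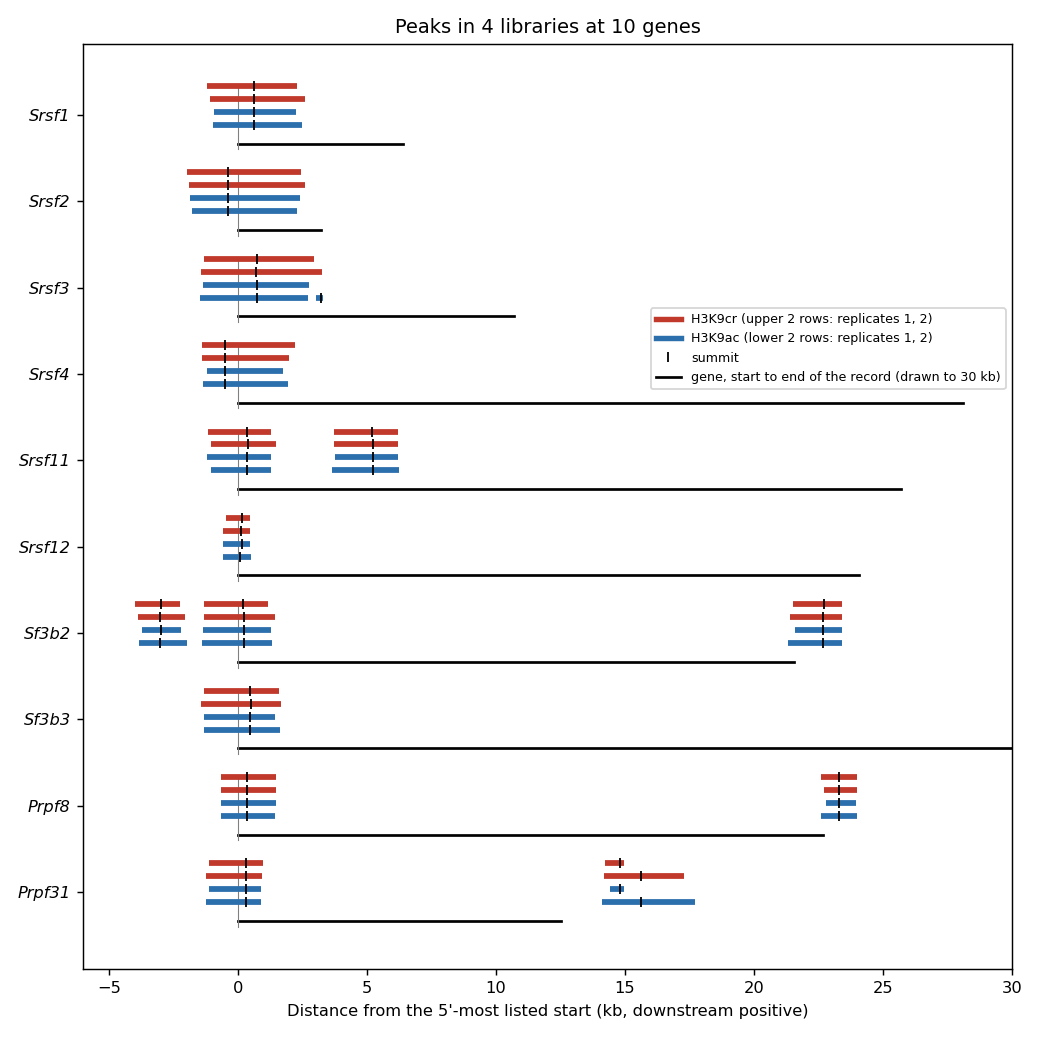
Peaks (coloured bars) in the H3K9cr libraries (red, upper rows, replicates 1 and 2) and the H3K9ac libraries (blue, lower rows, replicates 1 and 2) at 10 genes, by distance from the 5'-most listed start in kb, downstream positive. Ticks are summits and black lines gene records, drawn from that start on. The bars of the 4 libraries line up at each gene, the ticks of Srsf2 and Srsf4 lie left of 0, and Srsf11 and Sf3b2 show further regions.

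More than 1 peak in the window of every library was found at 7 of the 48 genes (14.6%), against 33.1% of the 14862 genes with a peak in every library and 22.5% of all protein-coding genes. The window grows with the gene record, whose median length was 13329 bp here and 24111 bp over the 14862 genes. These shares are not matched for length, and its part in them was not tested. At Sf3b2, a partner of Sf3b4 in branch point binding, 3 regions were present in all 4 libraries. The one over its start reached 97.1 and 96.14 with H3K9cr and 95.68 and 96.36 with H3K9ac, and the others lay at ends of the neighbours Pacs1 and Gal3st3, with percentiles between 56.13 and 69.02. At Prpf8, Prpf6, Prpf31 and U2af2 the further region likewise covered an end of another coding gene (Rilp, Samd10, Cnot3 and Epn1). At Prpf8 it reached 48.48 and 63.09 with H3K9cr and 44.43 and 60.36 with H3K9ac, well below the region at its start. At Prpf31 the further region extends beyond the window, and taken whole it was about as strong as the one at the start. It reached 96.08 and 92.8 with H3K9cr and 96.3 and 93.58 with H3K9ac. In the replicate 1 libraries it held 2 peaks each. The value for H3K9ac replicate 1 came from a peak outside the window, inside which no peak passed 95.35. For H3K9cr replicate 1 the peak behind the value is not given here. The further region of U2af2 reached 92.83 and 89.52 with H3K9cr and 91.66 and 86.54 with H3K9ac.

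Srsf11, an SR-related protein, had 2 regions, each over a listed start of its own, 4858 bp apart. The downstream region reached 97.97 and 97.44 with H3K9cr and 96.76 and 98.39 with H3K9ac, and the upstream region 94.25 and 99.25 with H3K9cr and 93.65 and 98.06 with H3K9ac. Both starts were thus marked in every library, with neither region the stronger throughout. The upstream region also covers the start of Lrrc40, 76 bp away.

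At Srsf10 the strongest peak of the window belonged to a neighbour in 3 libraries. The region over its own start reached 90.17 and 97.88 with H3K9cr and 90 and 96.78 with H3K9ac. A region at Pnrc2 reached 94.59 and 99.74 with H3K9cr and 95.72 and 99.67 with H3K9ac, and its peak in H3K9ac replicate 2 began just outside the window. Counting only the region over a gene's own start or end, a rule added after the values were seen, left the medians of the 48 genes at 94.92 and 95.08 for H3K9cr and 94.36 and 95.07 for H3K9ac. Genes without a listed start were counted at either end, so U2af2 kept its region at Epn1.

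Neighbours close to a start or gene end were common. Distance was taken from any listed start, or from either gene end where none was listed. Within 1 kb, another coding gene had an end at 16 of 48 genes (33.3%). The share was 16.1% over all protein-coding genes and 21.8% over those with a peak in every library. Such neighbours include Tfpt at 56 bp from Prpf31, Ccdc157 at 61 bp from Sf3a1 and Gucd1 at 70 bp from Snrpd3. Plekhj1 lies 109 bp from Sf3a2, and Gemin6 199 bp from Srsf7. Psenen lies 287 bp from U2af1l4, a relative of U2af1. At these genes the peak lies over both starts or ends, and its part in either gene was not tested.

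The comparison of the marks asked whether H3K9cr and H3K9ac cover these genes differently. For each of the 14862 genes with a peak in every library, log2 covered length, less the library median, was fitted with limma, and p-values were adjusted over all of them by the method of Benjamini and Hochberg. Of the 48 splicing genes 0 passed an adjusted p of 0.05, where the share over all genes was 0%, and 0 had an unadjusted limma p under 0.05, where the share over all genes was 5.28% (785 genes). The smallest adjusted limma p among the splicing genes was 0.897 and that over all genes 0.294. Their median difference, H3K9cr minus H3K9ac, was -0.03, against -0.01 over all genes, on the log2 scale.

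Differences at single genes lay between -0.16 and 0.15, and none passed the adjusted limma test. Snrpn had the largest positive difference, 0.15 ± 0.09 (SE; limma, adjusted p = 0.897), with 9902 and 10919 bp covered in the H3K9cr libraries and 8072 and 9670 bp in the H3K9ac libraries. Part of the length at Snrpn came from short regions called in H3K9cr replicate 2 alone, at percentiles from 1.14 to 11.17. Another short region, of 471 bp, was missing from H3K9ac replicate 1 alone. With a deposited -log10 q of at least 5 the difference at Snrpn was 0.095. The 4 next largest positive differences were those of Prpf38a (0.09), Snrpe (0.07), Srsf4 (0.07) and U2af1 (0.06). Srsf12 had the largest negative one, -0.16 ± 0.08 (SE; limma, adjusted p = 0.897), and Prpf38b (-0.14), Sf3b6 (-0.12) and Sf3b2 (-0.12) were also among the lowest. Snrpe and U2af1 turned sign under 1 of the alternatives given in the closing section.

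After centring, both H3K9cr libraries lay above both H3K9ac libraries at 3 splicing genes (Snrpe, Prpf38a and Snrpn), where the share over all genes was 16.1%, and below both at 14, where it was 20.2%. The difference was positive at 14 of the 48 genes and negative at 34. This split rests on the centring, which takes out the larger median covered length of the H3K9cr libraries: without it 38 were positive and 10 negative, the share of positive differences over all genes was 81.2% in place of 47.1%, and the median difference was 0.06 at the splicing genes against 0.08 over all genes.

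**Figure D4:**
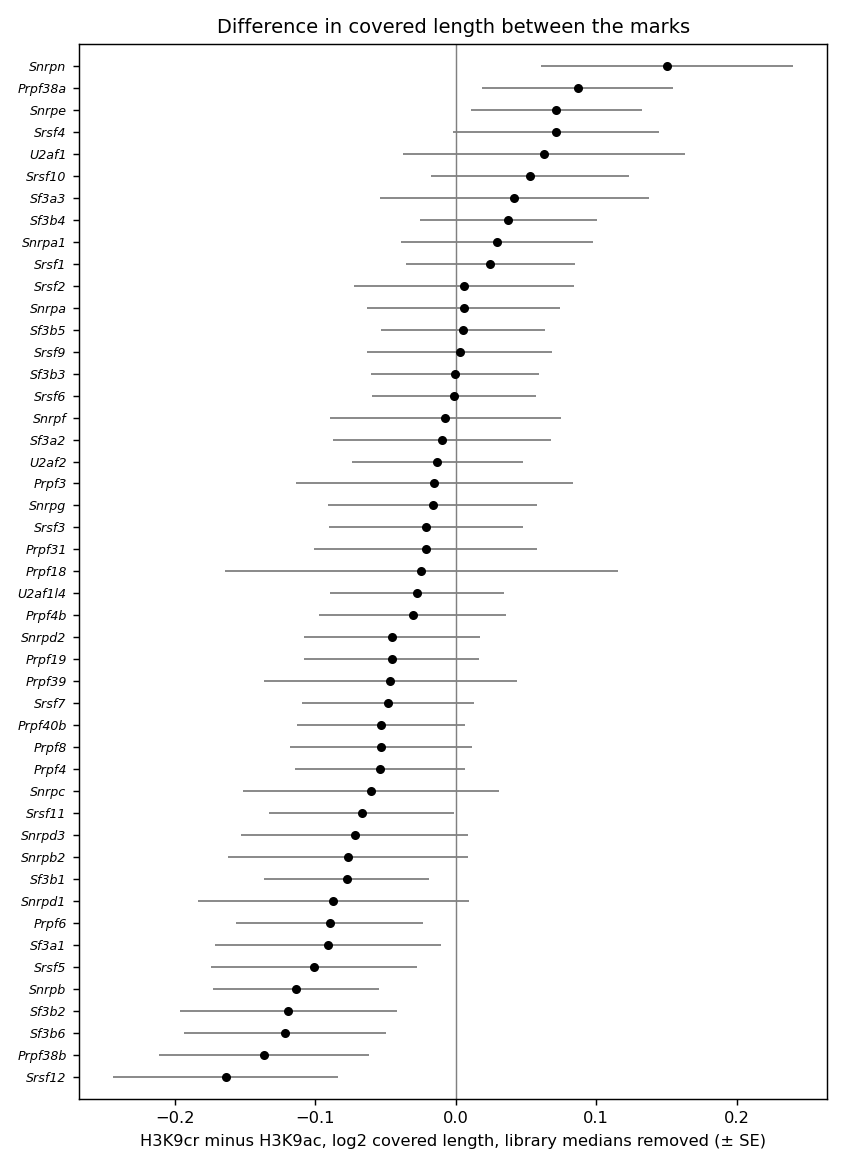
Difference in log2 covered length, H3K9cr minus H3K9ac, for 47 of the 48 genes (points, horizontal axis) after removal of library medians, with the standard error of the limma fit (bars), ordered by size. The points lie between -0.16 at Srsf12 and 0.15 at Snrpn, and none passed the adjusted test.

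The rank of the highest summit pileup within each library, turned into a normal score, was fitted in the same way. Of all genes 20 (0.135%) passed an adjusted limma p of 0.05, 14 higher and 6 lower in H3K9cr, and 0 of them were splicing genes. The count over all genes moved when a library was left out, to 61 and 40 without H3K9cr replicates 1 and 2 and to 90 and 207 without H3K9ac replicates 1 and 2, with 0 splicing genes among them each time. At an unadjusted limma p under 0.05 there were 2 splicing genes, against 8.43% of all genes. Snrpa1, which codes for a U2 protein, had a score of 1.35 and 1.42 in the H3K9cr libraries and 1.64 and 1.6 in the H3K9ac libraries, a difference of -0.24 ± 0.09 (SE; limma, adjusted p = 0.513). Prpf3, a U4/U6 protein, had 1.51 and 1.22 with H3K9cr and 1.17 and 1.03 with H3K9ac, a difference of 0.26 ± 0.11 (SE; limma, adjusted p = 0.565).

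The median difference in this score over the 48 genes was 0.01, against -0.01 over all genes, with 26 positive and 22 negative. Both H3K9cr libraries were above both H3K9ac libraries at 11 splicing genes, where the share over all genes was 18.6%, and below both at 7, where it was 20.1%. After Prpf3 the largest positive differences were those of Srsf11 (0.18), U2af1l4 (0.17), Snrpd3 (0.16) and Prpf18 (0.15), and after Snrpa1 the largest negative ones were those of Prpf19 (-0.18), Sf3b6 (-0.13), Snrpb (-0.12) and Snrpb2 (-0.11). The signs of U2af1l4, Snrpb and Snrpb2 turned when 1 library was left out.

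The libraries ordered the splicing genes differently by fold enrichment and by pileup. As a description across the 48 genes, which are not independent replicates, Spearman's rho of fold enrichment was 0.71 from one H3K9cr replicate to the other and 0.684 for H3K9ac. It was 0.919 between the marks in replicate 1 and 0.943 in replicate 2, and 0.671 and 0.708 between libraries that shared neither mark nor number. For summit pileup all 6 pairs of libraries lay between 0.959 and 0.979, and for covered length between 0.975 and 0.988. Fold enrichment thus ordered the genes by replicate number more than by mark, and pileup and covered length did not.

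The local background implied by a peak is the pileup with 1 added, over the fold enrichment, less 1. It took few values at the 48 genes. To 1 decimal, 7 and 8 different values occurred in the H3K9cr libraries and 7 and 7 in the H3K9ac libraries, from 1.91 to 8 in H3K9cr replicate 1 and from 1.99 to 5 in H3K9ac replicate 2. Many genes lay within 0.02 of the lowest value of their library: 19 and 29 of 48 with H3K9cr and 19 and 29 with H3K9ac. Spearman's rho of this background was 0.834 and 0.866 between marks of the same number, and 0.0565 and 0.0613 between replicates of H3K9cr and of H3K9ac. With so many near ties, rho rests largely on the genes above the lowest value. The input behind each library is not named in the labels, and its part in this pattern was not tested.

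Prpf8 shows the pattern at 1 gene. Its fold enrichment was 234 and 132 with H3K9cr and 203 and 136 with H3K9ac, while its pileup was 678 and 790 with H3K9cr and 522 and 816 with H3K9ac. The implied background was 1.91 and 5 with H3K9cr and 1.58 and 5 with H3K9ac. As deposited, the replicates with the higher number for pileup had the lower number for fold enrichment. The depth of each library is unknown, so these numbers cannot be read as a difference in level between libraries.

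**Figure D5:**
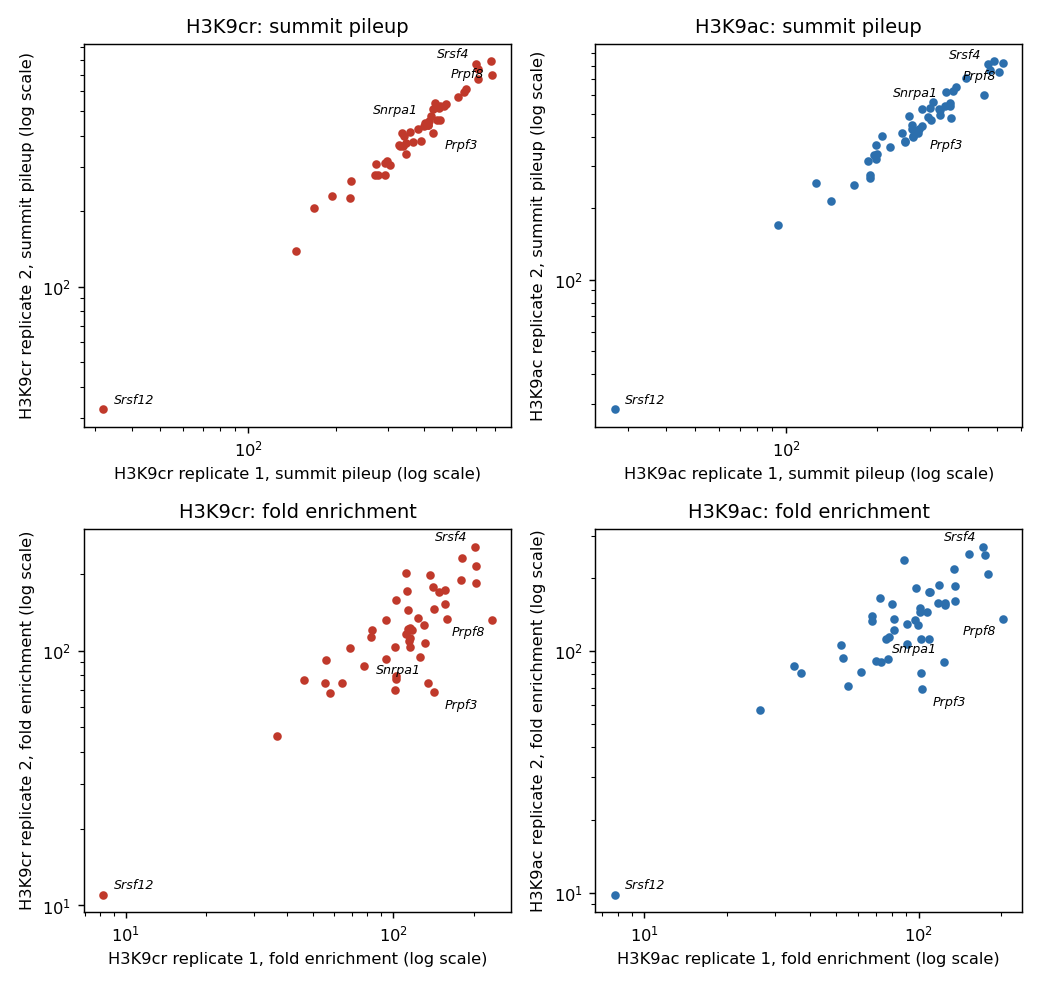
Replicate 2 against replicate 1 at 47 of the 48 genes on log scales, for summit pileup (top, rho over all 48 genes 0.979 for H3K9cr and 0.967 for H3K9ac) and deposited fold enrichment (bottom, rho 0.71 and 0.684), H3K9cr on the left and H3K9ac on the right. Points are genes, and 5 are named. The points scatter more widely in the lower panels, where Prpf8, Prpf3 and Snrpa1 fall below the trend.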

How the data were processed

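H3K9cr and H3K9ac were profiled in 4 libraries of P19 cells, 2 per mark, grouped and numbered by the titles in the labels. A separate peak list was deposited for every library. The submitters' processing notes name Bowtie2 2.4.1, MACS2 2.2.7.1 and the build GRCm38, without options. The columns, per the file headers, hold the position, length and summit of a peak, the pileup (a coverage signal), the -log10 p-value, the fold enrichment (a ratio over the local background) and the -log10 q-value. The deposited values carry the depth of each library, which limits their precision and is unknown, so strength was compared only within a list. Values of several lists printed side by side are as deposited.

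Genes came from the RefSeq table of GRCm38.p6, and overlap means at least 1 bp. Starts and strand were read from the RefSeq promoter table where it has an entry, and otherwise either gene end was used. Covered length (log2, less the library median) and pileup ranks (normal scores) were fitted with limma 3.58.1 in R 4.3.3 over 14862 genes, with Benjamini-Hochberg adjustment. An exact permutation of 2 libraries against 2 cannot give a two-sided p below 0.333, so none is given for single values. The fits were tested on simulated data with planted differences. For covered length, 1 of 100 differences of 0.5 and 45 of 100 of -1 were called. For the pileup score 8 of 100 and 73 of 100 were called. Of 14662 genes without a planted difference, 1 was called for covered length and 0 for the pileup score. A gene that was not called may therefore still differ. Other steps used Python 3.11.15, numpy 2.4.6, pandas 2.3.3 and scipy 1.17.1, and plots matplotlib 3.10.9.

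The members and lists were chosen with earlier results of these data known. Genes named with values were 18 set by role, the 5 highest and the 5 lowest in mean percentile, the 5 largest differences of either sign in both fits, up to 5 with several regions, and up to 5 strongly marked ones that share a peak with a neighbour. Of the genes that this rule takes, 1 is not reported here. Other genes are named as examples chosen after their values were seen. The NRF1 pattern searched was shortened to its core after a longer form had been run. Alternatives were stricter or equalised lists, other windows and measures, no centring, each library left out and a replicate block.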

Additional observations from a re-analysis of the deposited data

How the results depend on the processing

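All 48 genes kept a peak in every library under each alternative tried. The count with a summit near the start was also 48 under each alternative but one: within 0.5 kb in place of 1 kb it was 35. The mean of the 4 median percentiles was 95.01. It was 94.69 with a deposited -log10 q of at least 5, 94.73 with equal numbers of peaks per library, 94.86 in the gene span alone, 95.17 with 5 kb flanks, 95.28 by pileup, and 94.86 at the gene's own start or end, which was added after seeing the data. For covered length the count of genes called was 0 throughout. For the pileup score the count over all genes was 20. It was 12 in the gene span alone, 164 with a replicate block, 0 with fold enrichment (120 at an unadjusted limma p under 0.05), and 40 to 207 when a library was left out: 61 and 40 without H3K9cr replicates 1 and 2, and 90 and 207 without H3K9ac replicates 1 and 2. None of the 48 splicing genes was among them, under any alternative. Where 1 library was left, it was assumed to vary like the other mark.

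Of the named differences 5 reversed under 1 alternative. For covered length, Snrpe was -0.087 in the gene span alone. With a library left out, U2af1 ranged from -0.045 to 0.168 (without H3K9ac replicates 2 and 1). For the pileup score, Snrpb ranged from -0.262 to 0.019 (without H3K9cr replicates 2 and 1). Without H3K9ac replicate 2, Snrpb2 was 0.014 and U2af1l4 -0.042, and without H3K9ac replicate 1 they were -0.232 and 0.388. The cause was not tested. The labels do not pair the replicates, and the correlation of same-numbered deviations was 0.137 for covered length and 0.0274 for the pileup score over 14862 genes. With 2 libraries per mark, no read depth and inputs not analysed here, small differences at single genes cannot be resolved.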
